A study of Homo sapiens with 4 samples.

Results

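The genes described here are EFEMP1, NID2, COCH, CAV1, CAV2, SLIT2, GPM6B and POU4F1, 8 matrix, caveolar, guidance and neural genes out of 11963 genes on the array. They were selected on their signal in these 4 arrays, bright in the leukemia line SUP-B15 and near absent in the line BV-173, so their difference between the lines is the choice itself and is given without a test. Expression was measured with oligonucleotide arrays in total RNA of both human cell lines, which carry the Philadelphia chromosome and so make the fusion kinase BCR-ABL1. Both were grown without drug or for 16 h with STI571 (imatinib, an inhibitor of that kinase) at 10 μmol/l. The 4 groups (BV-173 untreated, BV-173 treated, SUP-B15 untreated, SUP-B15 treated) held 1 array each. There were no replicates, each line stands for itself alone, and in bulk RNA a smaller share of cells expressing a gene cannot be told apart from less RNA per cell.

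Extracellular matrix is a network of secreted glycoproteins and collagens that is built mainly by fibroblasts, epithelia and endothelia, and blood cells are better known for binding it than for making it. Caveolae are small invaginations of the plasma membrane that are shaped by caveolins together with the cavin coat proteins, and they are abundant in endothelium, fat and muscle. SLIT proteins are secreted guidance cues that act through ROBO receptors on axons and on migrating cells. None of these gene groups is a classical marker of B cell precursors.

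The 8 genes were represented by 16 probe sets, none of which was annotated to a further gene, and 13 probe sets of 7 genes reached the median signal of their array in at least 1 array. Only through SUP-B15 did 12 of these 13 reach it. The median signal per array lay between 95.5 and 115. In the 32 readings of these probe sets in BV-173, the signal ran from 2.7 to 131, with a median of 10.6, and 22 readings were under 24.5, the 25th percentile of all signals. In SUP-B15 the 13 probe sets ran from 885 to 13888 and lay at or above the 83.8th percentile of their array. The 3 probe sets of CAV2 went against the label, since none of them was bright in either line.

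**Figure D1:**
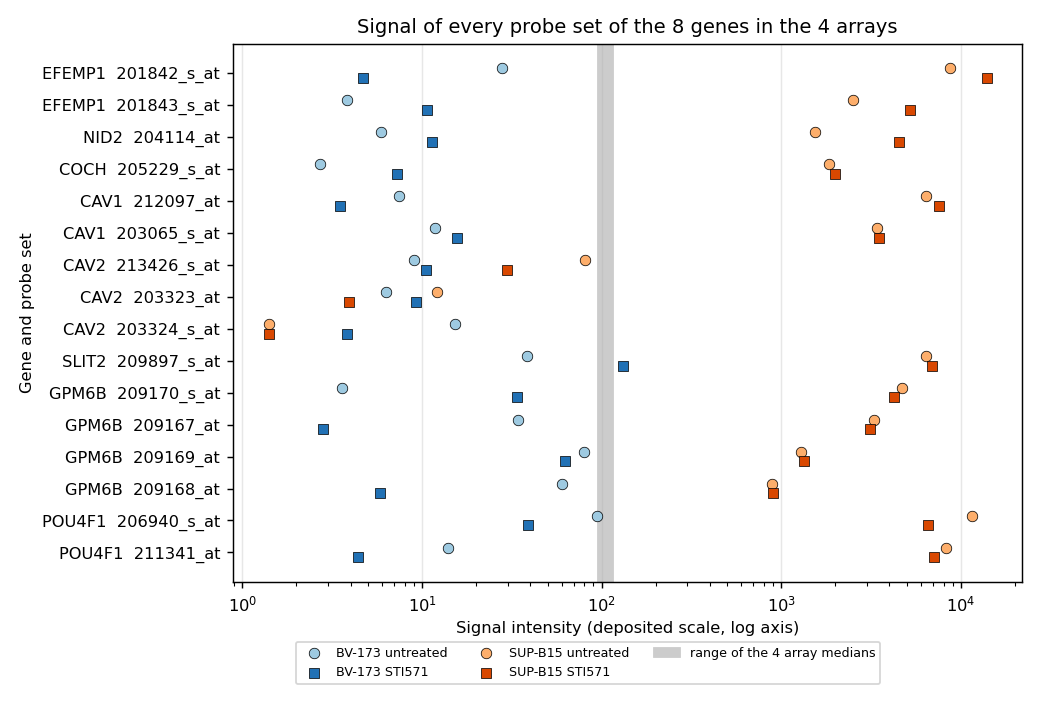
Signal intensity (log axis) of each of the 16 probe sets of the 8 genes in the 4 arrays, circles for untreated and squares for STI571, with the range of the array medians as a grey band. SUP-B15 readings lie far to the right of BV-173 readings in 13 probe sets, while the 3 probe sets of CAV2 stay between 1.4 and 80.8 in both lines.

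Among the secreted matrix genes, EFEMP1 encodes fibulin-3, a glycoprotein of elastic fibres and basement membranes. Readings are given here and below in the order without and with STI571. The brighter probe set of EFEMP1 read 28.0 and 4.7 in BV-173, against 8693 and 13888 in SUP-B15. The second read 3.8 and 10.7, against 2506 and 5201. Both probe sets therefore separated the lines completely, and both were brighter in the treated than in the untreated SUP-B15 array. NID2 encodes nidogen-2, which links laminin to collagen IV in basement membranes. It read 5.9 and 11.4 in BV-173, against 1533 and 4523 in SUP-B15. The treated SUP-B15 array was the brightest of the 4 for NID2 as for EFEMP1. COCH encodes cochlin, a secreted protein of the inner ear and of lymphoid follicles. It read 2.7 and 7.3 in BV-173, against 1846 and 2002.5 in SUP-B15, so that the lines lay far apart and the treated and untreated arrays of SUP-B15 close together.

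CAV1 encodes caveolin-1, the main structural protein of caveolae. Its probe set without shared probes read 7.4 and 3.5 in BV-173, against 6418 and 7540.3 in SUP-B15. The other read 11.8 and 15.6, against 3408 and 3513. CAV2 encodes caveolin-2, which forms oligomers with caveolin-1. Its brightest probe set read 9.0 and 10.5 in BV-173, against 80.8 and 29.6 in SUP-B15, under the array median throughout. Of the remaining probe sets of CAV2, the first read 6.3 and 9.2 in BV-173, against 12.1 and 3.9, and the other 15.3 and 3.8, against 1.4 and 1.4. CAV1 transcript was thus bright in SUP-B15 on both of its probe sets, whereas no CAV2 probe set passed the filter in any array, and CAV2 entered no fit. A dim reading cannot be set against a stated background, because detection calls were not used here.

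SLIT2, a secreted ligand of ROBO receptors, read 38.3 and 131 in BV-173, against 6412 and 6919.5 in SUP-B15. The reading in treated BV-173 lay at the 53.6th percentile of that array and was the only one of the 8 genes in BV-173 to reach an array median. GPM6B encodes a membrane proteolipid related to the main protein of myelin. Its probe sets read 4728, 3294, 1289 and 885 in SUP-B15 without drug, and 4218.5, 3108.5, 1329.9 and 897 with it. In BV-173 they lay between 2.8 and 79.6. All 4 kept the lines apart. POU4F1 (also BRN3A) encodes a POU domain transcription factor of sensory neurons. Its brighter probe set read 94.0 and 38.9 in BV-173, against 11473 and 6586 in SUP-B15. The second read 13.9 and 4.4, against 8261 and 7053.5. Here the untreated SUP-B15 array was the brighter on both probe sets, the reverse of the order seen for EFEMP1 and NID2.

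Differences between arrays are given below as differences of log2(signal + 24.5), with the brightest kept probe set standing for a gene, and 7916 genes could be compared. The added value understates folds against dim readings. On this scale the 7 kept genes were between 44.6-fold and 476-fold higher in SUP-B15, treated and untreated arrays taken apart. CAV1 was 202-fold higher untreated and 270.2-fold treated, EFEMP1 166-fold and 476-fold, and GPM6B 169-fold and 72.5-fold. POU4F1 gave 97.0-fold and 104-fold, SLIT2 102-fold and 44.6-fold, COCH 68.8-fold and 63.7-fold, and NID2 51.2-fold and 127-fold. All 7 were at least 4-fold higher in both pairs of arrays, as were 2.75% of all genes compared; the choice used this contrast, so nothing is read from that count. In the order of the mean line difference the 7 held ranks 1 (EFEMP1), 3 (CAV1), 4 (GPM6B), 6 (POU4F1), 7 (NID2), 9 (SLIT2) and 10 (COCH) of 7916. The last inside, COCH, had a mean log2 difference of 6.05, and PRKCB, at rank 11 and not in the set, had 6.0. Because readings in BV-173 were mostly under 24.5, these folds moved with the value added: the untreated log2 difference of COCH was 6.10 with 24.5, 8.96 with 1 and 4.27 with 98. That of GPM6B went from 7.40 to 4.0 with 1, where another of its probe sets stood for it, to 5.57 with 98 and to 5.08 when its probe sets were averaged. Its 4 probe sets taken singly gave 169-fold, 56.5-fold, 12.6-fold and 10.7-fold untreated.

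**Figure D2:**
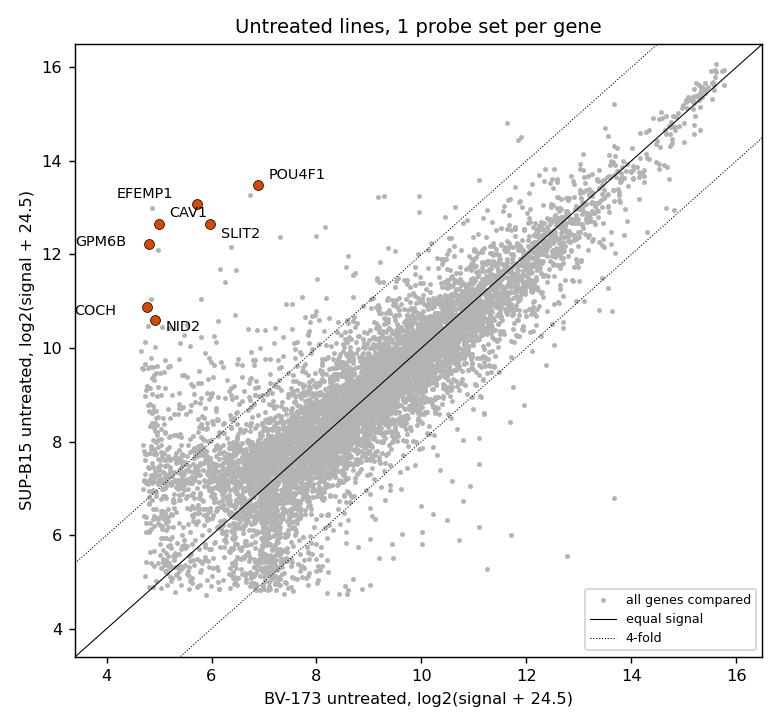
Untreated SUP-B15 against untreated BV-173, both as log2(signal + 24.5), for the 7916 genes compared (grey), with 7 of the 8 genes in orange and dotted lines at 4-fold. The orange points lie at the upper left edge of the plot, dim in BV-173 and bright in SUP-B15. They share that edge with grey points such as SNX7 and PECAM1.

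Whether STI571 changed these genes is a contrast that the choice did not use. The choice did use the signals of all 4 arrays, however, and took genes that were dim in both BV-173 arrays. The limma fit below, which averages both lines, is therefore not fully independent of it. With 1 array per group, the response of a single line has no test. In SUP-B15, where the genes are bright, NID2 had the largest difference, 2.92-fold (log2 1.55) from untreated to treated. POU4F1 was 1.74-fold lower in the treated array on its brighter probe set and 1.17-fold lower on the second. EFEMP1 was 1.60-fold higher on its brighter and 2.06-fold higher on its second probe set. CAV1, COCH, SLIT2 and GPM6B differed by 1.17-fold, 1.08-fold, 1.08-fold and 1.12-fold. Of the 7 kept genes, NID2 alone passed 2-fold in SUP-B15 on the probe set that stood for it, against 9.77% of all genes compared in either direction, 4.08% upward and 5.68% downward. Its difference was the 98th largest upward among the 7916 genes. The median log2 change of the 7 was 0.12, and that of all genes was −0.01. The 4 probe sets of GPM6B gave −0.16, −0.08, 0.04 and 0.02 in SUP-B15, and those of CAV1 0.23 and 0.04. Probe sets of these genes therefore lay within 0.21 and 0.19 of each other, whereas those of EFEMP1 and POU4F1 were 0.37 and 0.57 apart.

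The same differences in BV-173 rest on readings near the bottom of the scale and varied widely among probe sets of a gene. GPM6B gave log2 changes of 1.06, −1.10, −0.26 and −1.48 on its 4 probe sets, and EFEMP1 −0.85 and 0.31. SLIT2 had 1.31 on its only probe set, from 38.3 to 131. COCH had 0.23 and NID2 0.24. The change of POU4F1 in BV-173 was −0.90 on the brighter probe set and −0.41 on the other. It had the same sign as in SUP-B15 on both, at signals of 94.0 or less. The treated BV-173 array also stood apart in its 18S ribosomal RNA control probe sets, with a mean of 2817 against 1513 to 1596 in the other arrays, and the part of this in the BV-173 values was not tested.

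**Figure D3:**
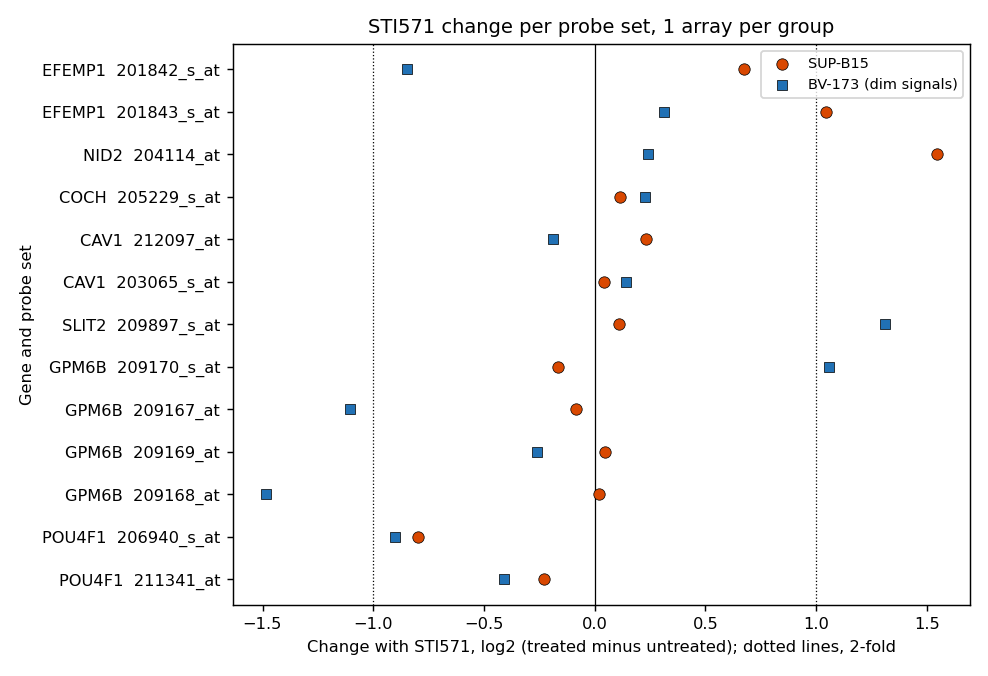
Change with STI571 (log2, treated minus untreated, with dotted lines at 2-fold) of the 13 probe sets that reached an array median, circles for SUP-B15 and squares for BV-173. In SUP-B15 most circles lie near 0, with NID2 at 1.55 and EFEMP1 at 0.67 and 1.05 on the right and POU4F1 at −0.80 and −0.23 on the left.

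The average response of both lines was tested with a limma fit of all 4 arrays, in which the line and the drug were terms, and Benjamini-Hochberg adjustment over 7916 genes. It called 3.02% of the genes compared, 1.40% higher and 1.62% lower after STI571. Of the 7 genes, 1 was called. POU4F1 fell by 0.85 on the log2 scale (SE 0.23, adjusted p = 0.0138). This is a mean of both lines, and its readings in BV-173, 94.0 and 38.9, were under the array median, so that part of it rests on dim readings. SLIT2 had a mean change of 0.71 (SE 0.24, adjusted p = 0.0733), which came mainly from its dim readings in BV-173. NID2 had 0.89 (SE 0.33, adjusted p = 0.132), with most of the change in SUP-B15. GPM6B, COCH, CAV1 and EFEMP1 had mean changes of 0.45, 0.17, 0.02 and −0.09, with SE of 0.25 to 0.37 and adjusted p of 0.605 to 0.993. The fit has 1 residual degree of freedom and takes each gene's spread from the trend over genes of like brightness. Brightness here is the mean over all 4 arrays, which for these genes lies between dim BV-173 and bright SUP-B15 readings. The SE therefore does not measure the spread among their dim readings. The call for POU4F1 ended with a common median (adjusted p = 0.114), a pseudocount of 98 (0.0593), the mean of its probe sets (0.258), its gene-specific probe set alone (0.747), no intensity trend (0.555) and no cell line term (0.9999).

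Partner genes of the same structures were read from lists that were likewise chosen with earlier results known. Of 34 genes of basement membrane and elastic fibre matrix, 32 were measured and 12 reached an array median. SPARC, a collagen-binding matricellular protein, read 52.0 and 3.3 in BV-173, against 465 and 516 in SUP-B15, and was the 1 gene of the list at least 4-fold higher in both pairs of arrays. Over all genes with no filter that share was 1.82%. LAMC1, the common laminin γ chain, read 308 and 340.5 in BV-173, against 631 and 404 in SUP-B15. NID1, the paralog of NID2, stayed between 9.1 and 44.1, and the main collagen IV chains COL4A1 and COL4A2 between 5.5 and 78.4, in all arrays. The fibulins FBLN2 and FBLN5 read 75.2 or less, whereas FBLN1 read 4.9 and 139 in BV-173, against 115.5 and 120.6 in SUP-B15, 4.76-fold higher untreated and 1.13-fold lower treated. LTBP2, a latent TGF-β binding protein, likewise changed order between the pairs, with 4.8 and 39.1 against 119.9 and 5.9. By the mean of both pairs, the largest line differences among the measured genes after SPARC were those of the laminin chain LAMB2 (118 and 173 in BV-173, against 10.9 and 25.1 in SUP-B15), of FBN1, the microfibril protein fibrillin-1 (5.8 and 5.6, against 75.2 and 39.4), and of the fibulin EFEMP2 (189 and 153, against 91.7 and 27.5). LAMB2 and EFEMP2 were dimmer in SUP-B15 and FBN1 brighter, though under the array median throughout. Of the 32 measured genes, 7 were above the array median in SUP-B15 without and 6 with STI571, against 5 and 8 in BV-173, so that EFEMP1 and NID2 were bright in a line in which most measured genes of this list were not.

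The caveola list held 10 genes, namely coat genes together with the flotillins FLOT1 and FLOT2 and the receptor kinase gene ROR1. All 10 were measured, 6 reached a median (FLOT1, FLOT2 and ROR1 among them), and 0 differed 4-fold between the lines in both pairs. Over all genes with no filter 1.82% were higher and 0.56% lower by that measure, so 0 of 10 says nothing particular about this list. The cavins are needed for caveolae to form. CAVIN1 read 59.9 and 54.6 in BV-173, against 9.0 and 58.6 in SUP-B15, CAVIN2 and CAVIN3 stayed between 7.7 and 93.5, and the muscle caveolin CAV3 read 73.2 and 30.7 in BV-173, against 15.8 and 20.2. PACSIN2, a membrane-bending protein, read 2165 and 1868 in BV-173, against 3177 and 3136 in SUP-B15, and the flotillin FLOT1 1183 and 1178, against 961 and 911. ROR1, a receptor kinase reported at caveolae, read 51.9 and 19.8 in BV-173, against 104 and 134 in SUP-B15, and PACSIN3 238 and 255, against 94.7 and 95.8. CAV1 was therefore the only caveolin or cavin with a probe set above an array median in these 4 arrays.

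Of 13 further guidance genes, 10 were measured and 7 kept. ROBO1, a receptor for SLIT2, read 4.0 and 34.5 in BV-173, against 752.5 and 623.5 in SUP-B15. It was the 1 gene of this list at least 4-fold higher in both pairs, against 1.82% of all genes with no filter. ROBO3, a variant receptor of the family, read 186 and 62.2 in BV-173, against 372 and 307 in SUP-B15. ROBO4, the endothelial receptor, read 29.7 and 15.2, against 204 and 74.1. UNC5C, a netrin receptor, read 9.1 and 94.4 in BV-173, against 6.5 and 8.7 in SUP-B15. The related ligand SLIT1 read between 67.8 and 114. SLIT3 changed order between the pairs, with 62.5 and 115.6 in BV-173, against 143 and 11.2 in SUP-B15. Both a SLIT ligand and a ROBO receptor transcript were thus bright in SUP-B15 and dim in BV-173. All 9 measured genes of the list around POU4F1 and all 3 of the list around GPM6B stayed under the array median in every array, so the sister genes POU4F2 and POU4F3 (74.5 or less) and GPM6A (66.5 or less) did not share the pattern. Dim but brighter in SUP-B15 in both pairs were POU3F3 (8.6 and 4.3, against 58.9 and 39.8), NEUROG2 (3.3 and 2.7, against 24.5 and 54.5) and POU3F4 (37.0 and 37.1, against 97.2 and 71.2). PRPH read 84.6 and 25.6 in BV-173, against 75.5 and 8.3 in SUP-B15. In the list around GPM6B, PLLP read 43.1 and 67.4, against 22.6 and 60.8, and MAL 81.5 and 17.5, against 8.2 and 68.0. For STI571 limma called 0 of the 12 matrix, 0 of the 6 caveola and 0 of the 7 guidance genes kept, against 3.02% of all genes compared, so that 0 in lists this short says nothing particular about them. Their median mean log2 changes were 0.03, −0.08 and −0.35, and that of all 7916 genes was 0.02. In SUP-B15 alone the medians were −0.64, −0.05 and −0.26, against −0.01 for all genes, with no test. There 4 matrix, 0 caveola and 2 guidance genes were at least 2-fold lower, against 5.68% of all genes compared. In the other direction the counts were 0, 0 and 1, against 4.08%. The 4 matrix genes (LAMA2, LAMA4, EFEMP2 and LTBP2) were dim, at 119.9 or less in SUP-B15.

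Markers of other cell types were examined because they bear on these genes. Of 12 fibroblast markers, 1 was above the array median in each BV-173 array, 3 in SUP-B15 without and 2 with STI571. The summed signal was 451 and 735 in BV-173, against 2382 and 2287 in SUP-B15. The largest readings were those of COL6A3, a collagen VI chain (19.9 and 38.1 in BV-173, against 1216 and 1458 in SUP-B15) and the surface glycoprotein THY1 (12.2 and 75.5, against 764 and 467.5). The defining collagens COL1A2 and COL3A1, and DCN, LUM, PDGFRA, POSTN and FAP, were at 59.4 or less in both SUP-B15 arrays, with LUM at 1.5 and 1.3. COL1A1 read 144 and 25.4 there, PDGFRB 106 and 77.9, and COL5A1 7.5 and 75.8. Of 8 endothelial markers 2 were above the median in SUP-B15. PECAM1, also found on leukocytes, read 4336 and 3076 in SUP-B15, against 7.0 and 13.6 in BV-173, and ENG, a TGF-β co-receptor, 1821 and 1503.5, against 561 and 546. VWF, CDH5, KDR, TEK and CLDN5 were at 42.8 or less in SUP-B15, and TIE1 at 69.6 and 37.5. The summed endothelial signal was 677 and 731 in BV-173, against 6312 and 4700.3 in SUP-B15. No reading of either list was 0.

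Epithelial markers summed to between 169 and 386 over 7 genes, T and NK cell markers to between 388 and 494 over 7, and erythroid markers to between 58.3 and 128 over the 2 measured. The 8 myeloid markers summed to 177 and 188 in BV-173, against 471 and 311 in SUP-B15. Of these, 0 were above the array median in BV-173, 2 in SUP-B15 without and 1 with STI571. Among them MPO, a granule enzyme, read 8.3 and 59.3, against 196 and 162, and CSF1R 11.2 and 39.6, against 156 and 77.7. The other myeloid markers stayed under the median in every array, and FCGR3B, S100A9 and LYZ were dimmer in SUP-B15 in both pairs. B lineage markers summed to 14791 and 44166.5 in BV-173, against 77309 and 102366 in SUP-B15. Much of these sums came from CD24 (3128 and 16202, against 28583 and 33140) and DNTT (3646 and 11815, against 22251 and 29317). CD22 was dimmer in SUP-B15 in both pairs, with 983 and 1033.5 in BV-173, against 712 and 379. The B lineage markers were present in both lines: 9 of 10 measured were above the median in each BV-173 array and 10 in each SUP-B15 array. The exception in BV-173 was MME (CD10), at 31.3 and 81.4, against 2102 and 4178 in SUP-B15. RAG1, a recombinase of antigen receptor genes, was with MME the other marker of this list at least 4-fold higher in both pairs, with 226 and 904 against 1644 and 4440.3. Over all genes compared the share at least 4-fold higher in both pairs was 2.75%. The part of another cell type in the signals of the 8 genes was not tested beyond these readings. By limma 7 of the 10 B lineage genes were called higher after STI571 and 0 lower, against 1.40% and 1.62% of all genes compared. The list was chosen with earlier results of these data known, so that count is a description only. These calls average both lines. In SUP-B15 alone 1 of the 10 rose at least 2-fold, against 4.08% of all genes compared. The median log2 change of the list was 0.42 in SUP-B15 and 1.05 as a mean of both lines, so much of the change lay in BV-173. On any other marker list 0 genes were called (of 5, 2, 1, 1, 2 and 1 kept).

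**Figure D4:**
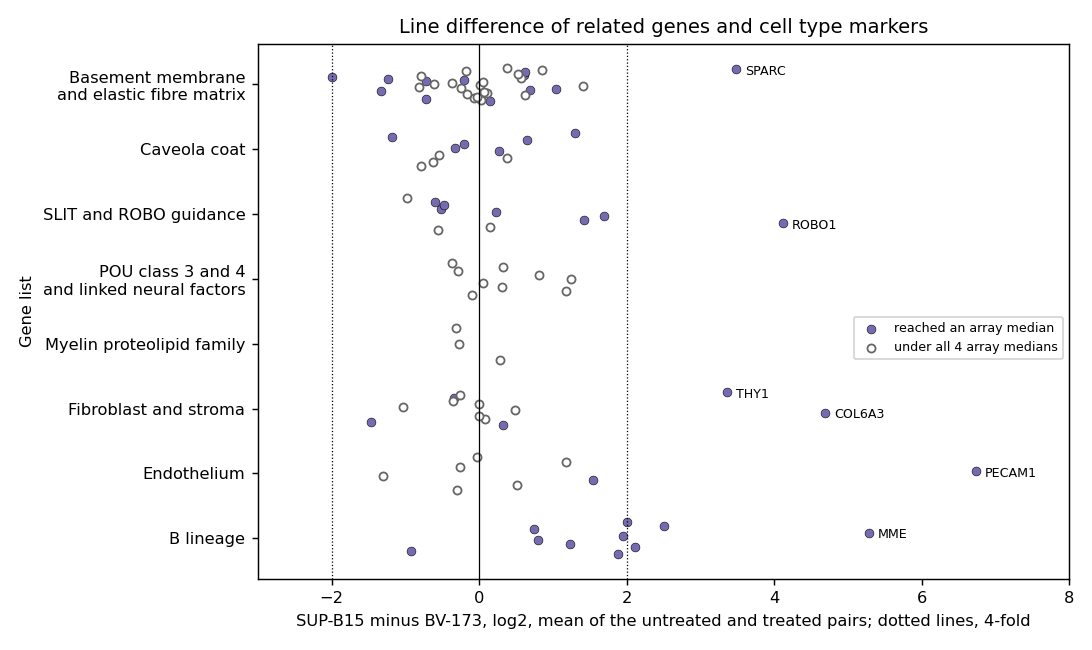
Difference between the lines (SUP-B15 minus BV-173, log2, mean of both pairs of arrays, with dotted lines at 4-fold) for the measured genes of 5 lists of partners and 3 lists of cell type markers, 1 point per gene, open where the gene stayed under all 4 array medians. Most partner genes lie within 4-fold. SPARC, ROBO1, COL6A3, THY1, PECAM1 and MME lie farthest to the right, and the B lineage genes RAG1, CD24 and VPREB1 lie just beyond the right dotted line.

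The genes whose 4 readings were most like those of the set were found by their distance to the median profile of the 7 genes, over the 4 arrays, among 689 genes under the array median in both BV-173 arrays. The nearest was SNX7, a sorting nexin, at a distance of 0.58 log2 units (4.5 and 2.5 in BV-173, 8079 and 7562 in SUP-B15). PECAM1 followed at 1.23. PRKCB, a protein kinase C gene, lay at 1.78, the SRC family kinase gene FYN at 2.14 and MME at 2.46. The 7 genes themselves lay between 0.41 (CAV1) and 2.48 (COCH) from their own median. SNX7 was thus nearer to that profile than 6 of the 7 genes, whereas FYN was farther than 4 of them and MME farther than 6. Likeness over 4 arrays mainly says that a gene is dim in 1 line and bright in the other.

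Chromosomal position was compared next, using the gene order of RefSeq on GRCh38.p14. CAV2 and CAV1 are direct neighbours on chromosome 7, with starts 25271 bases apart, and the others lie on chromosomes 2 (EFEMP1), 4 (SLIT2), 13 (POU4F1), 14 (NID2 and COCH) and X (GPM6B). Of the 70 other genes that were measured among the 5 nearest on each side, 4 were at least 4-fold higher in SUP-B15 in both pairs of arrays and 1 was lower, against 1.82% and 0.56% of all genes with no filter. MDFIC, a regulator of transcription factors that lies 4 measured genes before CAV1, read 1.2 and 7.7 in BV-173, against 741 and 784 in SUP-B15. TFEC, a transcription factor gene between MDFIC and CAV2, had the opposite order, with 1415 and 736 in BV-173, against 55.6 and 12.6 in SUP-B15. TES, next to CAV2, read 51.5 to 126, and the receptor gene MET, next to CAV1, 12.3 to 60.7. Genes of this stretch of chromosome 7 thus did not differ between the lines in 1 direction. Near NID2, the integrin activator FERMT2 read 3.3 and 9.9, against 735 and 948, and the glycogen phosphorylase PYGL 58.1 and 92.9, against 543 and 508. Beside GPM6B, the centriole gene OFD1 read 966.5 and 1892, against 7714 and 9607. No neighbour of EFEMP1, COCH, SLIT2 or POU4F1 differed 4-fold in both pairs.

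**Figure D5:**
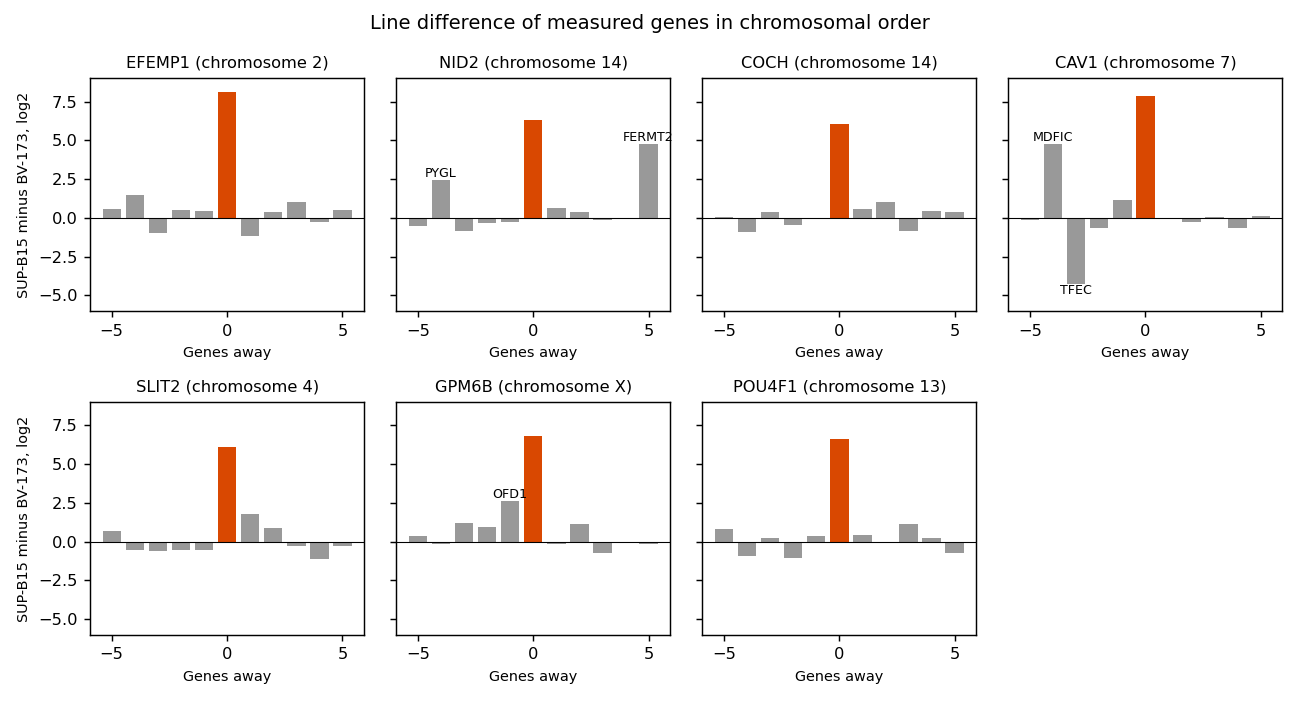
Line difference (SUP-B15 minus BV-173, log2, mean of both pairs of arrays) of 7 of the genes (orange, position 0) and of the 5 nearest measured genes on each side (grey) in chromosomal order. The orange bar is the tallest in each panel, and MDFIC, TFEC, PYGL, FERMT2 and OFD1 are the neighbours beyond 4-fold.

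Promoter sequence from RefSeq (GRCh38.p14) was at hand for 7 of the 8 genes, in 11 windows from 250 bases before to 50 bases after an annotated start. The stretches below are the 250 bases before the most upstream start, on the gene's strand and 5′ to 3′. CAV1 and CAV2 are shown because these neighbours differ in signal, and NID2 and POU4F1 because they had the largest STI571 differences in SUP-B15 in each direction. Capitals mark the GC box GGGCGG on either strand, a sequence bound by SP factors. CAV1 lies on the plus strand at chr7:116524759-116525008, CAV2 on the plus strand at chr7:116499488-116499737, NID2 on the minus strand at chr14:52069060-52069309 and POU4F1 on the minus strand at chr13:78603553-78603802.
CAV1: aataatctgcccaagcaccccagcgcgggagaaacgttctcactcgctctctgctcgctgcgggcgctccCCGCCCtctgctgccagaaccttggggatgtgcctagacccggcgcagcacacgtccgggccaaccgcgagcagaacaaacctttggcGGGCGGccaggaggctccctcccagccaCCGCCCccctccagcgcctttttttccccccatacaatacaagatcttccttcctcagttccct
CAV2: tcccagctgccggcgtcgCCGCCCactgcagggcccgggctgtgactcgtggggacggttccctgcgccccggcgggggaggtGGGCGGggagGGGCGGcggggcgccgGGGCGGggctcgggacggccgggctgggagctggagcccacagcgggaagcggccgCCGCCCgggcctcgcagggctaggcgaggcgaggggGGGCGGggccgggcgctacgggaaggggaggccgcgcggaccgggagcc
NID2: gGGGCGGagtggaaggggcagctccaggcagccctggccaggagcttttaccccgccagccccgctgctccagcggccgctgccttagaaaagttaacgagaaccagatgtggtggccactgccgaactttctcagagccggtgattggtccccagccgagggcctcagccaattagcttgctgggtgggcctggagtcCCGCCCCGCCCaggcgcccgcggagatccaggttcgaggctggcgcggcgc
POU4F1: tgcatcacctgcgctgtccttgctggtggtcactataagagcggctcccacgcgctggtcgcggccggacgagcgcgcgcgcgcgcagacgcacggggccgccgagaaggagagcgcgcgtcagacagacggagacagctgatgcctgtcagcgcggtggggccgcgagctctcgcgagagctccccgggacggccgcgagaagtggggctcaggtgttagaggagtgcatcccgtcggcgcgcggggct
These stretches held 3 GC boxes for CAV1, 6 for CAV2, 3 for NID2 (of which a pair overlaps) and 0 for POU4F1.

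The windows of these genes were rich in CpG, the dinucleotide that can be methylated in silenced promoters. Of the 11 windows, 10 had at least 14 CpG in 300 bases, the median over 35116 windows. POU4F1 had 47, a count reached by 2.41% of all windows, CAV2 43 (4.98%) and 33 (17.2%), COCH 40 (7.61%), SLIT2 36 (12.7%) and NID2 25 (32.0%). CAV1 had 19 (42.9%) and 18 (44.5%) at its upstream starts and 36 (12.7%) at a start 1353 bases downstream of the first. GPM6B had 42 (5.85%) at its upstream start and 10 (56.4%) at the other. The GC box, searched on both strands over the whole windows, lay in 7 of the 11, those of CAV1, CAV2, NID2 and SLIT2, and in 45% of all windows. CCAAT occurred in the windows of NID2 and of 1 start of GPM6B (34.6% of all), TATAAA in that of COCH (11.5%) and TGACGTCA, the cyclic AMP response element, at the upstream start of GPM6B (1.85%). The octamer ATGCAAAT (1.77%) and the AP-1 site TGANTCA (7.71%) were in none. None of these motifs contains another; they were chosen after the sequences had been seen, and are descriptions only.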

How the data were processed

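The 4 arrays gave 1 table of signal intensity per probe set, deposited by the authors on a linear scale. The submitters' processing notes name GCOS 1.3; the summary method is not given in the sources used here. A 2%-trimmed mean of the deposited intensity was 500.2 in the untreated BV-173 array. It was taken for that array only, so it does not show whether all arrays had been scaled alike. Detection calls were not used here, and the number of arrays limits precision.

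Of 22277 probe sets, 19064 had 1 gene symbol in the platform annotation, 1043 had several, 2108 had none and 62 were controls; 19052 of the first matched RefSeq by Entrez ID. Signals were taken as log2(signal + 24.5). Probe sets under the 50th percentile of every array were dropped, and of those left the one with the highest mean log2 value stood for its gene. The shared STI571 effect came from limma 3.58.1 in R 4.3.3 (cell line and treatment, intensity trend, two-sided, adjusted p under 0.05); on simulated data with known changes, false calls made up more than the nominal share in most runs. Other values have no test.

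The 8 genes and all lists were chosen with earlier results of these data known. The genes most like the set were the 5 nearest to its median profile; genes of the Y chromosome were left out of that search after its result was seen. Up to 4 genes per partner list with the largest line difference were named, and further members were named after their values were seen. As alternatives, arrays were quantile normalized or set to a common median, with a pseudocount of 1 or 98, no filter, the 75th percentile filter, the mean of probe sets, gene-specific probe sets (no mark of shared probes in the ID) or single ones, no cell line term and no trend. Probe sets of the 8 genes that carry the mark were likewise annotated to no further gene.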

Additional observations from a re-analysis of the deposited data

Results flagged for a closer look

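The change with STI571 went in opposite directions in the lines for 3 genes, each in 1 array per group, and the differences were not tested. EFEMP1 had 0.67 in SUP-B15 and −0.85 in BV-173 (log2), CAV1 0.23 and −0.19, and GPM6B −0.16 and 1.06. All BV-173 readings behind these values were 34 or less, and other probe sets did not all share these directions. The second of EFEMP1 had 1.05 in SUP-B15 and 0.31 in BV-173, the second of CAV1 had 0.04 in SUP-B15 and 0.14 in BV-173, and the other 3 of GPM6B had −0.08, 0.04 and 0.02 in SUP-B15 and −1.10, −0.26 and −1.48 in BV-173.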

How the results depend on the processing

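With 1 array per group no array could be left out with a test remaining, and depth cannot be stated for arrays. The cell line term already makes the test a paired one, treated against untreated within each line; the labels give no replicate numbers for a further block. The count of genes at least 4-fold higher in SUP-B15 was 7, and 4 with gene-specific probe sets, since only 4 genes have such a set that was kept. With each probe set as its own feature it was 13, all 13 kept. The count at least 2-fold changed in SUP-B15 stayed at 1 under 8 settings and was 2 of 13 with each probe set as its own feature (NID2 and the second of EFEMP1). The 239 genes that limma called for STI571 became 153 with a common median, 116 with the mean of probe sets, 139 with gene-specific probe sets (4855 genes tested), and 0 without the cell line term (70 at an unadjusted p under 0.05) or without the intensity trend (658); the cause was not tested. The mean STI571 change of EFEMP1, −0.09, turned to 0.19 with a pseudocount of 98 and 0.30 when probe sets were averaged. That of GPM6B, 0.45, turned to −0.15 with a pseudocount of 1, −0.25 when probe sets were averaged and −0.59 with gene-specific probe sets. NID2 passed the test with a pseudocount of 98 (adjusted p = 0.0245, range over settings 0.0245 to 0.9999), and SLIT2 with a pseudocount of 1 (0.0128, the lowest of its range) and the 75th percentile filter (0.0485). Adjusted p for POU4F1 ranged from 0.00287 to 0.9999. The change of NID2 in SUP-B15 lay between 1.5 and 1.65 and that of POU4F1 between −0.81 and −0.23.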

Other observations

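A pair of genes outside the set, singled out after their values were seen, also stood high in the line difference. TNFRSF21, a death receptor of the TNF receptor family, read 8.6 and 7.5 in BV-173, against 1380.2 and 2359 in SUP-B15, a mean log2 difference of 5.81. PID1, an adaptor with a phosphotyrosine-binding domain, read 2.0 and 5.9 in BV-173, against 1099 and 1318 in SUP-B15, a difference of 5.44. These were the genes at ranks 13 and 15 of 7916.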
